A study of Homo sapiens with 8 samples.

Results

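The genes described here are NFE2L2, which encodes the transcription factor NRF2, and 9 genes that NRF2 is known to control: HMOX1, NQO1, GCLM, GCLC, TXNRD1, SRXN1, SLC7A11 and the ferritin genes FTH1 and FTL. They were chosen by symbol, and all 10 were found among the 50006 genes counted and passed the filter on low counts, which 16307 genes passed. The study exposed wild-type BEAS-2B cells, which are immortalised epithelial cells of human bronchus kept in serum-free medium, and sequenced 8 RNA libraries. Mock cells received PBS, FBG cells received fibrinogen, aC cells received the αC domain of fibrinogen, and FCP cells received a preparation that the labels call Der m 1-derived FCPs, an abbreviation they do not expand. Der m 1 comes from the mite Dermatophagoides microceras and is its group 1 allergen. By the title of the series the αC domain derives from this allergen, whereas the sample labels call it a domain of fibrinogen. Its preparation is not described in the sources used here. Each agent was given at 4 ng/µl for 4 h, and each group held 2 libraries labelled as biological replicates 1 and 2. The labels do not say whether replicates were separate cultures, so p-values reflect nothing beyond the spread between libraries, and that spread may be technical.

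NRF2 is held in the cytoplasm by KEAP1, which brings it to a CUL3 ubiquitin ligase for degradation. When reactive compounds modify KEAP1, NRF2 accumulates, pairs with a small MAF protein and binds antioxidant response elements, from which BACH1 can displace it. Its targets supply glutathione and thioredoxin, detoxify quinones, break down haem and store iron, and in airway epithelium they are known for protection against inhaled oxidants. NRF2 is controlled largely through its stability, and ferritin largely through translation, so messenger RNA is only part of either.

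Stretches of promoter are printed for 2 genes because they hold the core of the antioxidant response element, the sequence through which NRF2 acts. RefSeq (GRCh38.p14) gave the 250 bases before the start of 7 of the 10 genes, in 9 windows. HMOX1, SLC7A11 and FTH1 had no entry. The core TGACNNNGC was sought on both strands, with N any base. It was found in 3 windows of 2 genes, GCLM and TXNRD1, and in 10.9% of 35116 windows of the same length over all genes. Neither AP-1 sequence, TGACTCA or TGAGTCA, was found in the 9 windows, against 4.2% of all windows. The GCLM window is chr1:93909431-93909680 on the minus strand. The TXNRD1 windows are chr12:104215529-104215778 and, before a start within the gene, chr12:104286782-104287031, both on the plus strand. Capitals mark the match, which in GCLM and in the second TXNRD1 window is read on the opposite strand.
GCLM: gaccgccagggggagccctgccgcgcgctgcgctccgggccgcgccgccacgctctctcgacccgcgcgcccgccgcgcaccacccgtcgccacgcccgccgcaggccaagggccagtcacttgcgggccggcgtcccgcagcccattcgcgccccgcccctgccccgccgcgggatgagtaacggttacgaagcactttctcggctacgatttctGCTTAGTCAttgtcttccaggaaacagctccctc
TXNRD1 first start: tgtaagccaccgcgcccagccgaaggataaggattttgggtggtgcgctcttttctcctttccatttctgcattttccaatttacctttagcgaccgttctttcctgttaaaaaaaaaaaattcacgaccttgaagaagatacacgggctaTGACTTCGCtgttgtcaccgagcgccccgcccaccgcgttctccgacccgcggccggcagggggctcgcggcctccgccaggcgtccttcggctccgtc
TXNRD1 second start: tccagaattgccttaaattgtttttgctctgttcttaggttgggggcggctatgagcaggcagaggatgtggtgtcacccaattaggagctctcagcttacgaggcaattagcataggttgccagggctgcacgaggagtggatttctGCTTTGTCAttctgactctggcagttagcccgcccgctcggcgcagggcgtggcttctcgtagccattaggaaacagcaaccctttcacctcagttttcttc
A match is a description of the letters and not evidence of binding. Sequence outside the windows was not searched, so a window without a match does not show that its gene lacks the element. GCLM was higher in each treated group than in Mock, while TXNRD1, scaled by TMM, moved by at most 0.12 on the log2 scale in any of the 6 comparisons.

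Libraries held 15137196 to 22258791 counts, and the deeper ones were those of FCP and aC, where 3 counts correspond to 0.135 to 0.138 CPM (counts relative to the scaled total of the library) against 0.181 to 0.198 in Mock and FBG. The libraries fell apart in a way that bears on every comparison across that divide. The summed level of 10 epithelial markers was 1893 to 1929 TPM (counts per exonic base, scaled to a fixed sum per library) in Mock and FBG and 7750 to 7993 in FCP and aC, and GRHL2 was at 0 counts in both Mock libraries. The summed level of 9 mesenchymal markers was 2142 to 2143 TPM in Mock, 1690 to 1706 in FBG and 656 to 684 in FCP and aC, with COL3A1, whose counts an annotated alternate copy makes uncertain, at 0 in all 8 libraries. All 10 epithelial markers were higher in FCP and in aC than in Mock, with median log2 fold changes of 5.43 and 5.37. Of the 8 tested mesenchymal markers 7 were lower, with medians of −1.95 and −1.91 over the 8. The sums understate this for single markers. KRT5 had 61 counts over the Mock libraries and 72424 over those of FCP, and TP63 had 2 and 3631. KRT8, abundant in all groups, changed less, from 560 TPM in Mock to 1091 in FCP. FBG against Mock called 4 epithelial markers higher and 3 lower and, of the mesenchymal markers, 1 higher and 6 lower. In aC against FCP the counts were 2 and 2, and 1 and 1. Markers of secretory and ciliated airway cells summed to at most 0.364 TPM, and leukocyte and endothelial markers to at most 5.62 and 1.91. The labels do not say whether cultures or libraries were handled in sets. In every comparison of FCP or aC with Mock or FBG, the treatment and any such difference in handling cannot be told apart. The part of this division in the differences of the NRF2 genes was not tested, and in bulk samples fewer cells of a type cannot be told apart from less RNA per cell.

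The counts of 3 of the genes share exons with other genes, and the counting did not use strand. Every one of FTH1's 1203 exonic bases lies in an exon of a gene on the opposite strand, 880 bases (73.2%) in BEST1 and 323 bases (26.8%) in LOC399900. Only 7 of 15778 tested genes on the primary assembly (0.0444%) are covered in full like this, and 64% share no exonic base. The recorded counting command has no option that gives a read pair to several genes, so the FTH1 value is a partial count of its transcripts. BEST1 had 12 to 35 counts per library and LOC399900 8 to 41, with the highest, 41 and 30, in aC. For SRXN1 the shared part was 8.9% (LOC107985423, 8 to 28 counts) and for SLC7A11 15.2% (SLC7A11-AS1, 0 to 5 counts). The other 7 genes shared none.

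Processed pseudogenes, intronless copies made from messenger RNA, are the other source of uncertainty for the ferritins. RefSeq names 27 pseudogenes of FTH1 and 20 of FTL, and 2 of these 47 have a row in the count files. FTH1P3 (chr2:27392623-27393576) was counted 3 and 7 times in the Mock libraries and 2 and 3 times in those of FBG, but 7 and 13 in those of FCP and 19 and 14 in those of aC. FTLP10 had 0 in every library. FTH1P3 was therefore small beside FTH1, and adding it changed no call. In GENCODE v29 transcripts, 25% of the 50-base stretches of FTH1 and 18.3% of those of FTL also occur in a gene elsewhere in the genome. At 100 bases the shares were 10.9% and 3.34%, and at 150 bases 0.366% and 0. Of the 9 genes sharing 100-base stretches with FTH1, 8 are named as its pseudogenes. No stretch of 100 bases of the other 8 genes occurs elsewhere. Pairs that map to several places were not counted, so ferritin levels may be understated in all groups.

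**Figure D1:**
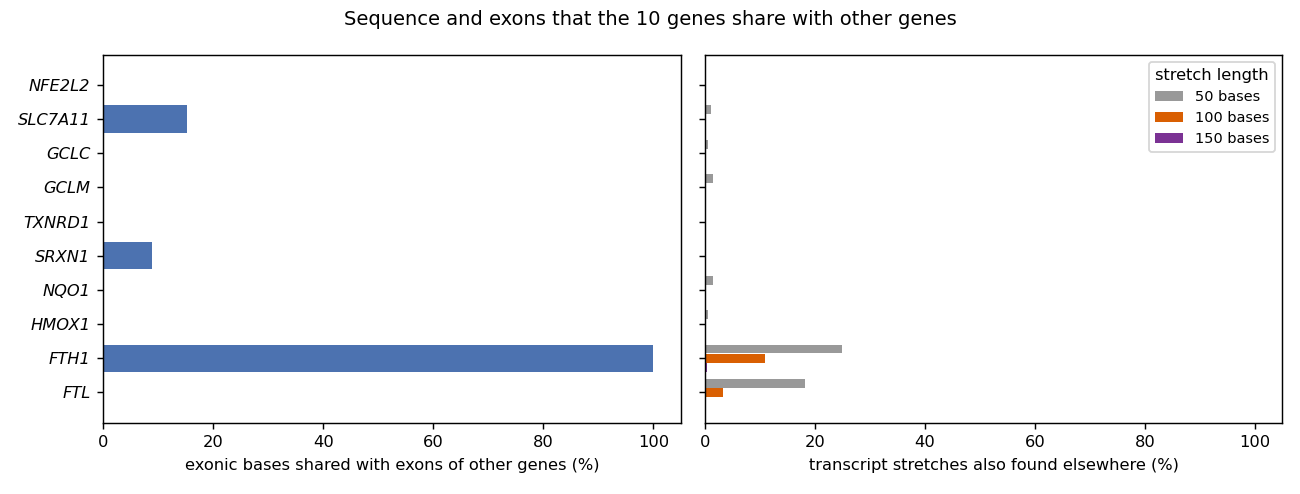
Left, the share of each gene's exonic bases (percent) that lies in exons of other genes. Right, the share of transcript stretches of 50, 100 or 150 bases (percent) that also occur in a gene elsewhere. FTH1 stands at 100% on the left, and FTH1 and FTL have the largest shares on the right, 25% and 18.3% at 50 bases.

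NFE2L2 (chr2:177230303-177264727, minus strand) was high in FCP and aC and low in Mock and FBG. Its level was 56.1 and 57.3 CPM in the Mock libraries, 64.2 and 60.2 in those of FBG, 107 and 104 in those of FCP, and 112 and 114 in those of aC. Every FCP and aC library lay above every Mock and FBG library. The level in FCP was 1.86 times that in Mock, a log2 fold change of 0.90 ± 0.041 (adjusted p = 2.4e-15), where the error is the larger of the fitted standard error and the counting error. In aC it was 1.99 times Mock (0.99 ± 0.04, adjusted p = 3.15e-16). FBG was higher by a log2 fold change of 0.13 ± 0.048 (adjusted p = 0.013), which was not called without Mock replicate 1 (0.12, adjusted p = 0.0892) or FBG replicate 1 (0.09, adjusted p = 0.213), by DESeq2 (0.11, adjusted p = 0.207), or after trends on GC content and length were removed (0.04, adjusted p = 0.519). Against FBG, NFE2L2 was higher by 0.76 ± 0.039 in FCP and by 0.86 ± 0.039 in aC. The comparisons of FCP and aC with Mock and FBG cross the division in epithelial and mesenchymal markers given above. Its part in these rises was not tested. The 48 tested genes within 5 Mb of NFE2L2 had median log2 fold changes against Mock of 0.36 in FBG, 0.46 in FCP and 0.48 in aC. Over all autosomal genes the medians were 0.02, 0.05 and 0.06. Medians of neighbouring genes are given below for each of the other genes described here, and some had the opposite sign to the gene's own change.

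The genes that control NRF2 moved in both directions. KEAP1, its repressor, averaged 106 CPM in Mock and 96.6 in FBG, and 59.7 and 63 CPM in FCP and aC. It was lower than in Mock by −0.83 ± 0.038 on the log2 scale in FCP and −0.75 ± 0.038 in aC. In FBG it was lower by −0.14 ± 0.038 with TMM scaling, −0.02 (adjusted p = 0.632) with library size alone and higher by 0.09 with GC and length trends removed. RBX1, the RING subunit of the CUL3 ligase, was also lower, by −0.33 ± 0.062, −0.90 ± 0.062 and −0.95 ± 0.062. CUL3 itself was higher in FBG (0.28 ± 0.031) and not called in FCP (0.06 ± 0.031) or aC (0.06 ± 0.03), but lower in all 3 with GC and length trends removed (−0.22, −0.63 and −0.66). BACH1, the competitor of NRF2, was higher in FCP (0.40 ± 0.073) and aC (0.57 ± 0.073) and was not called in FBG (0.10 ± 0.075, adjusted p = 0.268), and with the trends removed BACH1 was lower in FBG (−0.19) and not called in FCP (−0.02, adjusted p = 0.795). Among the small MAF genes, MAFG was higher in all 3 treated groups, by 0.15 ± 0.059, 0.21 ± 0.058 and 0.36 ± 0.058, with the FCP value at 0.04 (adjusted p = 0.497) without the trends. MAFF was lower in FBG (−0.49 ± 0.062) and higher in aC (0.15 ± 0.055), and in FCP it was lower with TMM scaling (−0.14 ± 0.055) but above 0 with library size alone (0.08, adjusted p = 0.192) and higher with the trends removed (0.14). NFE2L3, a relative of NRF2, was lower in FBG (−0.58 ± 0.144) and higher in FCP (1.28 ± 0.102) and aC (1.46 ± 0.101). GSK3B, also among the control genes, was higher in FCP (0.37 ± 0.032) and aC (0.57 ± 0.031) and not called in FBG (0.03, adjusted p = 0.494). With the trends removed GSK3B was lower in FBG (−0.15), not called in FCP (0.06, adjusted p = 0.085) and higher in aC (0.28). SQSTM1, a KEAP1-binding autophagy receptor, has an annotated alternate copy and differed widely between replicates (39 and 2466 counts in FBG), so its value is uncertain, and it was not called. Of the 12 control genes, all tested, FBG had 2 higher and 4 lower, FCP 5 and 5, and aC 6 and 4. Over all tested genes, 24.2% were called higher and 26.3% lower in FBG against Mock. The shares were 37.3% and 36.1% for FCP, and 38% and 36.7% for aC. Among the 9323 genes with a mean CPM of at least that of HMOX1, lower calls were more common. There the higher and lower shares were 30.2% and 40.9% for FBG, 34.8% and 51.2% for FCP, and 34.6% and 52.0% for aC. The counts of every list below stand beside all these shares, though not every listed gene reaches that level. With library size alone the counts of control genes were 5 and 3, 7 and 2, and 8 and 3, and with the trends removed 3 and 7, 3 and 4, and 6 and 5.

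**Figure D2:**
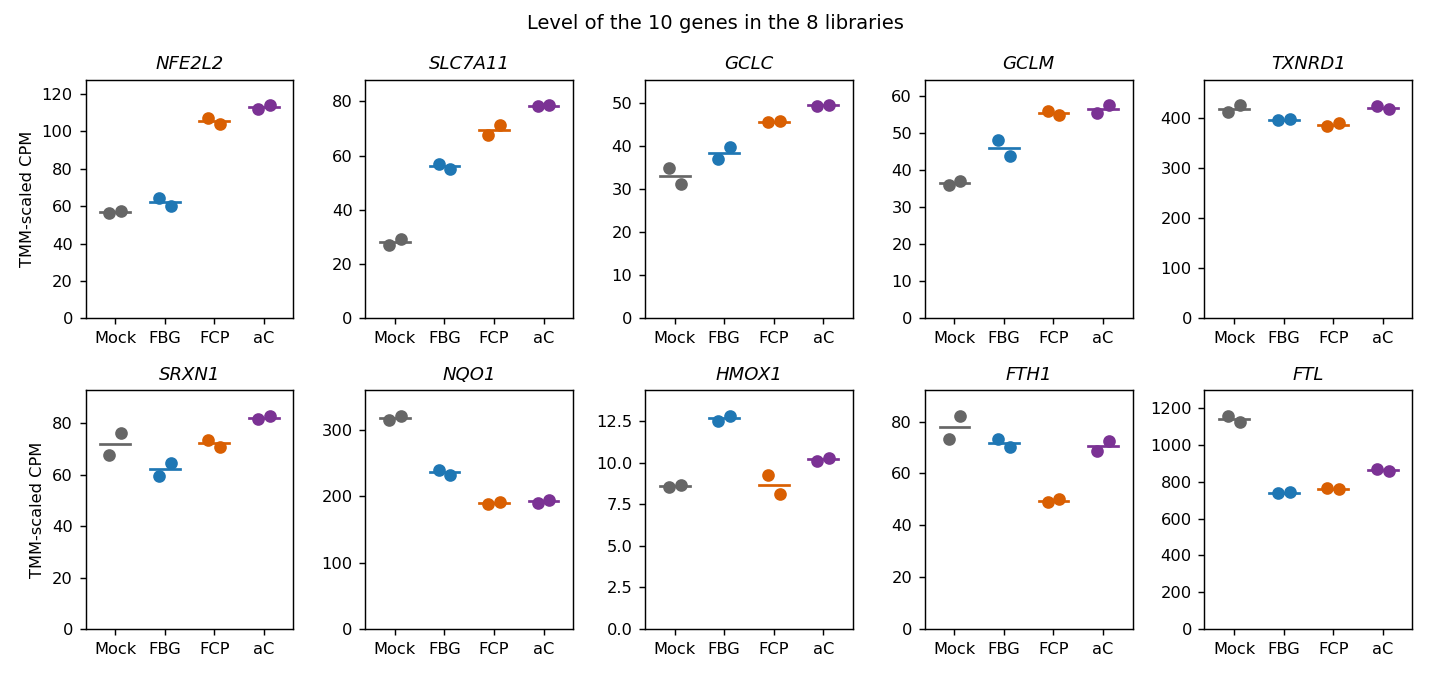
Level of each of the 10 genes, in CPM on TMM-scaled library sizes from 0 on a linear axis, in the 4 groups. Each point is 1 library and each bar the mean of 2. NFE2L2, SLC7A11, GCLC and GCLM lie lowest in Mock, NQO1 and FTL highest in Mock, and HMOX1 highest in FBG.

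SLC7A11 and the subunits of glutamate-cysteine ligase, the genes for the first steps of glutathione synthesis, were higher in all 3 treated groups. SLC7A11 (chr4:138164097-138312671, minus strand) encodes xCT, the carrier subunit of a cystine exchanger. Its level was 27.1 and 29.3 CPM in the Mock libraries, 57.0 and 55.1 in those of FBG, 67.8 and 71.2 in those of FCP, and 78.4 and 78.6 in those of aC. No 2 groups overlapped, and the order was Mock, FBG, FCP, aC. It was 1.99 times Mock in FBG (log2 0.99 ± 0.061, adjusted p = 2.61e-13), 2.46 times in FCP (1.30 ± 0.056, adjusted p = 1.92e-16) and 2.78 times in aC (1.48 ± 0.055, adjusted p = 1.56e-17). With TMM scaling these were the largest positive fold changes of the 10 genes in each comparison with Mock. SLC7A11 has the most exonic bases of the 10, 16031, and the lowest GC content, 38.6%. After trends on GC content and length were removed, its log2 fold changes were 0.42 in FBG, 0.42 in FCP and 0.57 in aC, all still called, and that between FCP and FBG fell from 0.31 ± 0.047 to 0.01 (adjusted p = 0.885). On that scale NFE2L2 in FCP (0.88) and aC (1.00) and HMOX1 in FBG (0.81) had larger values than SLC7A11. With TMM scaling, the 23 tested genes within 5 Mb of SLC7A11 had median log2 fold changes against Mock of 0.15 in FBG, −0.14 in FCP and 0.12 in aC.

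GCLC (chr6:53497341-53545101, minus strand) encodes the catalytic subunit of glutamate-cysteine ligase. It stood at 34.9 and 31.3 CPM in the Mock libraries, 37.0 and 39.8 in those of FBG, 45.5 and 45.8 in those of FCP, and 49.4 and 49.5 in those of aC. Its log2 fold change against Mock was 0.47 ± 0.06 in FCP (adjusted p = 3.13e-07) and 0.58 ± 0.059 in aC (adjusted p = 8.5e-09). In FBG it was 0.21 ± 0.063 (adjusted p = 0.00552), which was not called without Mock replicate 2 (0.14, adjusted p = 0.126) or FBG replicate 2 (0.16, adjusted p = 0.087), by DESeq2 (0.19, adjusted p = 0.096), or with GC and length trends removed (0.09, adjusted p = 0.217). The 766 tested genes of chromosome 6, on which GCLC lies, had a median log2 fold change of 0.48 against Mock in both FCP and aC, as large as that of GCLC in FCP. The 33 tested genes within 5 Mb of GCLC had medians of 0.37 in FCP and 0.38 in aC.

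GCLM (chr1:93885199-93909430, minus strand) encodes the modifier subunit, which raises the efficiency of the enzyme. It was measured at 35.9 and 37.0 CPM in the Mock libraries, 48.0 and 43.8 in those of FBG, 55.8 and 54.8 in those of FCP, and 55.3 and 57.4 in those of aC. Mock lay below all other groups, and FCP and aC overlapped. The log2 fold change was 0.33 ± 0.059 in FBG (adjusted p = 2.28e-05), 0.60 ± 0.053 in FCP (adjusted p = 7.75e-10) and 0.63 ± 0.053 in aC (adjusted p = 3.51e-10). With GC and length trends removed the FBG value was 0.13 (adjusted p = 0.0562). The 58 tested genes within 5 Mb of GCLM had medians of 0.25, 0.47 and 0.46 in the same order.

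The ratio of GCLM to GCLC, both counted per exonic base, changed less than the levels. It was 0.73 and 0.838 in the Mock libraries, 0.92 and 0.78 in those of FBG, 0.87 and 0.848 in those of FCP, and 0.793 and 0.821 in those of aC. The ratios in the Mock libraries overlapped those of FBG and aC. GCLM and GCLC were also the pair of members whose patterns were closest, at a Euclidean distance of 0.27 between their mean-centred log2 CPM over the 8 libraries, and the next were TXNRD1 and SRXN1 at 0.368 and NQO1 and FTL at 0.549. NQO1 and SLC7A11 were farthest apart, at 2.46.

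**Figure D3:**
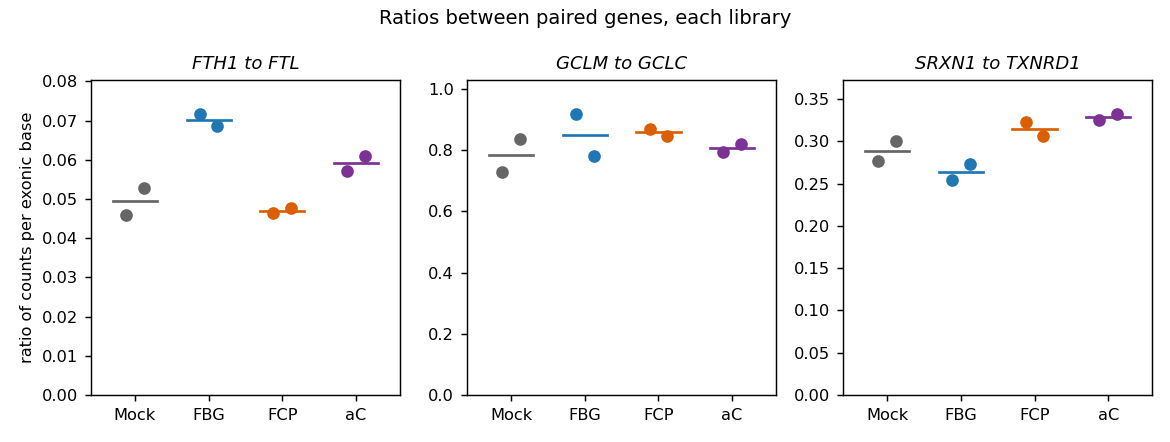
Ratio of counts per exonic base between 3 pairs of genes in each library, on linear axes from 0. Each point is 1 library and each bar the mean of 2. The FTH1 to FTL ratio is highest in FBG, while the GCLM to GCLC ratios of Mock, FBG and aC overlap.

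Among other glutathione genes, 12 of 13 were tested and most were lower than in Mock. FBG and FCP each had 9 lower and aC had 8, with 2 higher in every group. With library size alone the lower ones numbered 7, 5 and 5, and with GC and length trends removed FBG had 3 higher and 6 lower, FCP 4 and 6, and aC 5 and 5. MGST1, a membrane-bound glutathione transferase, was lower in FBG (−0.34 ± 0.062) and higher in FCP (1.53 ± 0.045) and aC (1.54 ± 0.045), and with the trends removed these were −0.79, 0.81 and 0.81. SLC3A2, the heavy chain that SLC7A11 needs at the cell surface, was lower in FBG (−0.24 ± 0.02) and higher in FCP (0.39 ± 0.019) and aC (0.44 ± 0.018). GSTP1, a cytosolic transferase, was lower by −1.04 ± 0.025 and −0.93 ± 0.025 in FCP and aC, or −0.50 and −0.45 with the trends removed. In FBG GSTP1 was lower by −0.10 ± 0.025 with TMM scaling and higher by 0.21 with the trends removed. GSR, which regenerates reduced glutathione, was lower by −0.39 ± 0.037, −0.64 ± 0.037 and −0.65 ± 0.037 in FBG, FCP and aC. GPX1, a glutathione peroxidase, was lower by −0.39 ± 0.028, −0.38 ± 0.027 and −0.24 ± 0.027 with TMM scaling, but with the trends removed it was higher in FCP (0.10) and aC (0.16).

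The list of ATF4, a transcription factor of the amino acid response, and its targets had 7 tested genes. With TMM scaling none was higher than in Mock, with 5 lower in FBG and 6 in both FCP and aC. With library size alone 4, 5 and 5 were lower, and TRIB3 was higher in aC (0.14, adjusted p = 0.015). ATF4 itself was lower by −0.31 ± 0.026 in FBG, −0.86 ± 0.026 in FCP and −0.89 ± 0.026 in aC, or −0.13, −0.52 and −0.58 with GC and length trends removed. DDIT4 was lower by −0.69 ± 0.027, −0.91 ± 0.026 and −0.91 ± 0.026, or −0.43, −0.53 and −0.60 with the trends removed. PHGDH, of serine synthesis, was lower by −0.20 ± 0.02, −1.47 ± 0.021 and −1.30 ± 0.021, the FBG value being −0.07 with the trends removed.

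NQO1, whose product reduces quinones in a single step of 2 electrons, was lower in every treated group. The gene (chr16:69709401-69726560, minus strand) was at 315 and 321 CPM in the Mock libraries, 240 and 232 in those of FBG, 188 and 191 in those of FCP, and 190 and 195 in those of aC. Both Mock libraries were above all others, FBG was between, and FCP and aC overlapped. The log2 fold change was −0.43 ± 0.024 in FBG (adjusted p = 7.1e-13), −0.75 ± 0.023 in FCP (adjusted p = 3.9e-18) and −0.72 ± 0.023 in aC (adjusted p = 6.13e-18). Each of these 3 differences stayed called under every alternative run, with values of −0.31 in FBG, −0.53 in FCP and −0.49 in aC when scaled by library size only. Around NQO1, the 124 tested genes within 5 Mb had medians against Mock of −0.12 in FBG, −0.09 in FCP and −0.08 in aC with TMM scaling. In the list of quinone, carbonyl and drug metabolism genes, 14 of 16 were tested: FBG had 1 higher and 9 lower, FCP 4 and 7, and aC 6 and 7. CBR1, a carbonyl reductase, was lower in all 3 (−0.42 ± 0.056, −0.86 ± 0.055 and −0.97 ± 0.056). ABCC3, a transporter of conjugates, was lower in FBG (−0.72 ± 0.06) and higher in FCP (1.09 ± 0.042) and aC (1.53 ± 0.041). TRIM16 was higher in FCP (1.00 ± 0.083) and aC (1.21 ± 0.081), while EPHX1, an epoxide hydrolase, was lower in FBG (−0.42 ± 0.077), FCP (−1.21 ± 0.078) and aC (−1.15 ± 0.078).

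With TMM scaling, TXNRD1 and SRXN1, which recycle thioredoxin and overoxidised peroxiredoxins, lay within 0.21 of Mock on the log2 scale in every treated group. TXNRD1 (chr12:104215779-104350307, plus strand) was at 413 and 426 CPM in the Mock libraries, 396 and 398 in those of FBG, 384 and 390 in those of FCP, and 424 and 419 in those of aC. Mock and aC overlapped. With TMM scaling it was lower by −0.08 ± 0.02 in FBG (adjusted p = 0.00165), but without FBG replicate 1 the call was lost (−0.07, adjusted p = 0.0563) and with library size alone the value was above 0 (0.03, adjusted p = 0.174). In FCP it was lower by −0.11 ± 0.019 (adjusted p = 1.17e-05) with TMM scaling and higher by 0.11 (adjusted p = 3.46e-05) with library size alone, so its direction there depends on the scaling. In aC it was not called (0.01 ± 0.019, adjusted p = 0.717, 95% interval −0.03 to 0.04) with TMM scaling and was higher by 0.24 with library size alone. Neighbours of TXNRD1, 61 tested genes within 5 Mb, had medians against Mock of 0.16 in FBG, 0.2 in FCP and 0.15 in aC with TMM scaling.

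SRXN1 (chr20:646615-653200, minus strand) was at 67.9 and 76.2 CPM in the Mock libraries, 59.7 and 64.5 in those of FBG, 73.6 and 70.8 in those of FCP, and 81.7 and 82.9 in those of aC. The Mock libraries spanned those of FCP. SRXN1 was lower in FBG by −0.21 ± 0.053 (adjusted p = 0.00228), which was lost without Mock replicate 2 (−0.13, adjusted p = 0.0575), with library size alone (−0.10, adjusted p = 0.125) and with GC and length trends removed (−0.07, adjusted p = 0.291). It was higher in aC by 0.19 ± 0.05 (adjusted p = 0.00211), which was lost without Mock replicate 1 (0.11, adjusted p = 0.059). In FCP it was not called (0.00 ± 0.051, adjusted p = 0.947, interval −0.10 to 0.10), but it was called higher with library size alone (0.22) and with GC and length trends removed (0.26). For the 66 tested genes within 5 Mb of SRXN1, medians against Mock were −0.15 in FBG, −0.09 in FCP and −0.1 in aC with TMM scaling. Of the other thioredoxin and peroxiredoxin genes, 10 of 11 were tested, and with TMM scaling 8 were lower in FBG, 10 in FCP and 10 in aC, with none higher. With library size alone 7, 9 and 9 were lower and TXNIP was higher in FBG (0.10, adjusted p = 0.0258). With the trends removed 5, 10 and 10 were lower, and TXNRD2 (0.26) and PRDX5 (0.15) were higher in FBG. PRDX1, an abundant cytosolic peroxiredoxin, was lower by −0.73 ± 0.024, −0.72 ± 0.022 and −0.70 ± 0.022 in FBG, FCP and aC, the last 2 being −0.33 and −0.30 with the trends removed. PRDX5 was lower by −0.15 ± 0.028, −1.16 ± 0.029 and −1.12 ± 0.029 with TMM scaling, and PRDX6 by −0.41 ± 0.024, −0.67 ± 0.024 and −0.68 ± 0.024. Of the enzymes that supply NADPH to these systems, 6 of 6 were lower in FBG and 5 of 6 in FCP and in aC with TMM scaling. With library size alone 6, 4 and 4 were lower and ME1, malic enzyme, was higher in FCP (0.32) and aC (0.42). PGD, of the pentose phosphate pathway, fell by −0.59 ± 0.02, −1.16 ± 0.02 and −1.18 ± 0.02. With TMM scaling ME1 was lower in FBG (−0.63 ± 0.061) and the 1 gene of the list higher in aC (0.19 ± 0.052), where it was lower (−0.14) with GC and length trends removed.

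HMOX1 (chr22:35381096-35394207, plus strand), haem oxygenase 1, had the lowest CPM of the 10 genes and was highest in FBG. Its level was 8.53 and 8.66 CPM in the Mock libraries, 12.5 and 12.8 in those of FBG, 9.25 and 8.11 in those of FCP, and 10.1 and 10.3 in those of aC. FBG lay above every other library, and FCP spanned Mock. HMOX1 was 1.47 times Mock in FBG (log2 0.55 ± 0.118, adjusted p = 0.000389). It was not called in FCP (0.02 ± 0.117, adjusted p = 0.912, interval −0.21 to 0.24) or in aC (0.25 ± 0.117, adjusted p = 0.0599, interval 0.02 to 0.48). With GC and length trends removed, HMOX1 was called higher in all 3 groups, by 0.81 in FBG, 0.44 in FCP and 0.61 in aC, and with library size alone it was also called in aC (0.48). Its GC content, 60.8%, was the highest of the 10. Near HMOX1, the 113 tested genes within 5 Mb had medians against Mock of −0.23 in FBG, −0.36 in FCP and −0.26 in aC with TMM scaling. Directly compared, HMOX1 was lower in FCP than in FBG by −0.54 ± 0.116 (adjusted p = 0.00029). The lower level in aC than in FBG (−0.31 ± 0.115, adjusted p = 0.0222) was lost under 7 alternatives, among them without FBG replicate 2 (−0.29, adjusted p = 0.0816), without aC replicate 1 (−0.29, adjusted p = 0.106) and without aC replicate 2 (−0.33, adjusted p = 0.0666).

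FTL (chr19:48965309-48966879, plus strand), the ferritin light chain, was the highest of the 10 genes and was lower in all treated groups. It was at 1158 and 1124 CPM in the Mock libraries, 739 and 743 in those of FBG, 767 and 760 in those of FCP, and 869 and 860 in those of aC. The 4 groups did not overlap. The log2 fold change was −0.62 ± 0.016 in FBG (adjusted p = 1.59e-18), −0.58 ± 0.016 in FCP (adjusted p = 2.83e-19) and, with TMM scaling, −0.40 ± 0.015 in aC (adjusted p = 1.98e-16), where the value turned to 0.09 (adjusted p = 1.01e-06) once trends on GC content and length were removed. The same removal brought FBG to −0.37 and FCP to −0.06, both still called. FTL has the fewest exonic bases of the 10, 871, and a GC content of 56.3%. Its neighbours, 221 tested genes within 5 Mb, had medians against Mock of −0.15 in FBG, −0.03 in FCP and −0.04 in aC with TMM scaling.

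FTH1 (chr11:61964285-61967634, minus strand), the heavy chain with the ferroxidase site, was lowest in FCP. Its partial counts gave 73.5 and 82.2 CPM in the Mock libraries, 73.3 and 70.4 in those of FBG, 49.0 and 50.1 in those of FCP, and 68.5 and 72.4 in those of aC. FCP was below every other library, and FBG and aC overlapped. It was lower in FCP than in Mock by −0.65 ± 0.05 (adjusted p = 1.75e-10) and than in FBG by −0.54 ± 0.05 (adjusted p = 6.38e-09), and with GC and length trends removed these were −0.19 and −0.29, both still called. In FBG it was not called against Mock (−0.11 ± 0.05, adjusted p = 0.0634), but it was without Mock replicate 1 (−0.19, adjusted p = 0.00473) and with no filter (−0.12, adjusted p = 0.0225), and it turned to 0.10 (adjusted p = 0.0762) with GC and length trends removed. In aC it was lower than in Mock by −0.14 ± 0.049 (adjusted p = 0.0126) with TMM scaling, but above 0 with library size alone (0.09, adjusted p = 0.107) and called higher with GC and length trends removed (0.30, adjusted p = 3.36e-07). That aC value was also not called without Mock replicate 2 (−0.06, adjusted p = 0.305) or aC replicate 1 (−0.10, adjusted p = 0.13). The 223 tested genes within 5 Mb of FTH1 had median log2 fold changes against Mock of −0.22 in FBG, −0.48 in FCP and −0.47 in aC. The ratio of FTH1 to FTL per exonic base was 0.046 and 0.0529 in the Mock libraries, 0.0718 and 0.0686 in those of FBG, 0.0463 and 0.0477 in those of FCP, and 0.0571 and 0.061 in those of aC. Because FTH1 was counted in part, this ratio is not the ratio of the transcripts, and whether the counted part was the same in all groups was not tested.

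Among other haem and iron genes, 14 of 16 were tested, of which FBG had 1 higher and 6 lower, FCP 3 and 9, and aC 3 and 10. IREB2, an iron regulatory protein that blocks ferritin translation when iron is low, was higher in all 3 groups (0.48 ± 0.04, 0.79 ± 0.036 and 0.82 ± 0.036), and by 0.23, 0.36 and 0.40 with GC and length trends removed. STEAP3, a ferric reductase of endosomes, was higher in FCP (1.93 ± 0.109) and aC (1.87 ± 0.109). PCBP1, a chaperone that delivers iron to ferritin, was lower by −0.45 ± 0.023 in FBG and −0.97 ± 0.023 in both FCP and aC, and PCBP2 by −0.42 ± 0.018, −0.75 ± 0.018 and −0.77 ± 0.018 in FBG, FCP and aC. TFRC, the transferrin receptor, was lower by −0.54 ± 0.024 in FBG, −0.81 ± 0.023 in FCP and −0.75 ± 0.023 in aC.

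Counted together, the 10 genes showed no common direction against Mock with TMM scaling. FBG called 5 higher (NFE2L2, HMOX1, GCLM, GCLC and SLC7A11) and 4 lower (NQO1, TXNRD1, SRXN1 and FTL), where 24.2% of all tested genes were called higher and 26.3% lower. The median log2 fold change of the 10 was 0.03, and 0.02 over all tested genes. FCP called 4 higher (NFE2L2, GCLM, GCLC and SLC7A11) and 4 lower (NQO1, TXNRD1, FTH1 and FTL), against 37.3% and 36.1% of all genes, with medians of 0.01 and 0.06. aC called 5 higher (the 4 of FCP and SRXN1) and 3 lower (NQO1, FTH1 and FTL), against 38% and 36.7%, with medians of 0.22 and 0.06. These 3 comparisons share the Mock libraries, so they are not independent. In either direction, 50.4% of all tested genes were called in FBG, 73.4% in FCP and 74.7% in aC, and among the 9323 genes with a mean CPM of at least that of HMOX1, the lowest of the 10, the shares were 71.1%, 86% and 86.6%. Read against these shares, counts of this size with TMM scaling do not set the 10 genes apart. With GC and length trends removed, the median of the 10 was 0.07 in FBG, 0.30 in FCP and 0.41 in aC. Over all genes of that fit the medians were −0.03, −0.11 and −0.12. With library size alone the median of the 10 was 0.14, 0.23 and 0.45. Over all genes, library size alone raised the median by over 0.1, to 0.13, 0.28 and 0.29 in FBG, FCP and aC, and turned the split of calls from 3941 higher and 4285 lower to 5186 and 3010 in FBG, from 6085 and 5884 to 7679 and 4493 in FCP, and from 6199 and 5984 to 7782 and 4489 in aC. Across the 13569 genes with a known GC content, the fold changes also followed GC content, with a Spearman rho of −0.41 in FBG, −0.27 in FCP and −0.23 in aC against Mock, over genes that are not independent. Against FBG the rho was −0.08 in FCP and −0.04 in aC, and in aC against FCP it had the opposite sign, 0.17.

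**Figure D4:**
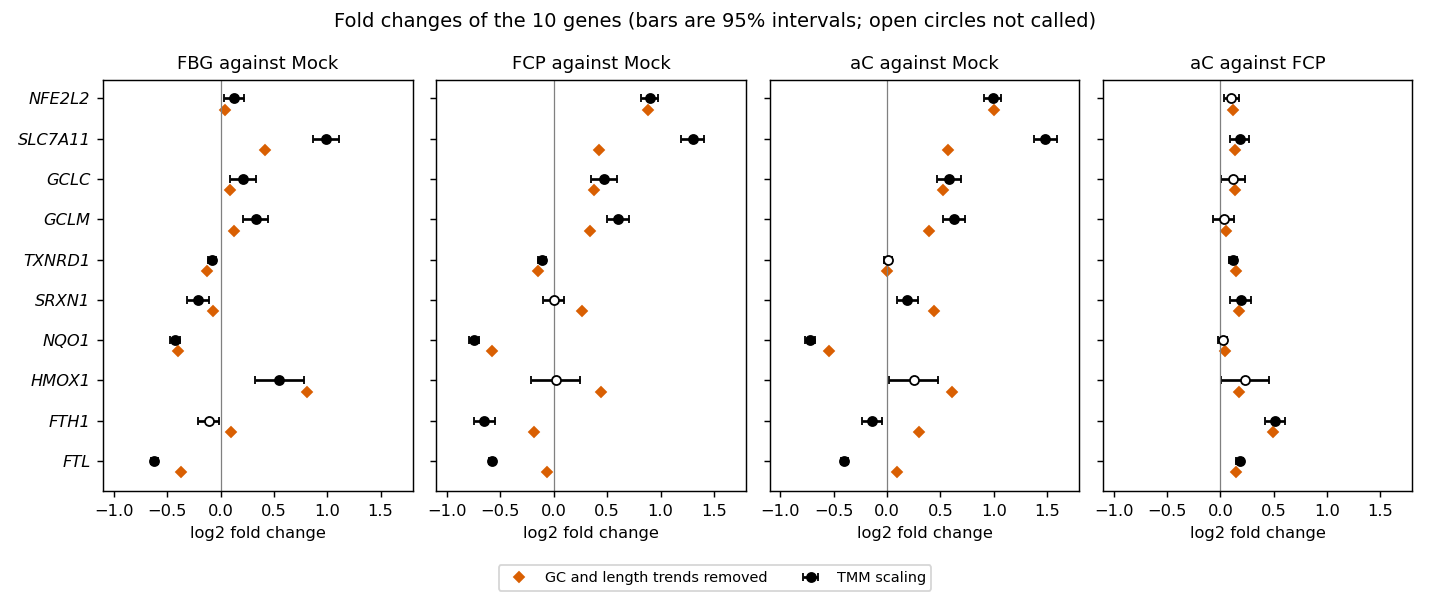
Log2 fold change of the 10 genes in 4 comparisons. Circles are TMM-scaled values with bars for the 95% interval, filled where called at an adjusted p under 0.05, and diamonds are values with trends on GC content and length removed. SLC7A11 has the highest circle against Mock in each comparison, and FTL and FTH1 in aC against Mock and FTH1 in FBG against Mock change side between circle and diamond, while TXNRD1 in FBG and FCP against Mock changes side when scaled by library size alone, which is not drawn.

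Each agent was given for the same time and at the same mass per volume, which need not be the same number of molecules. The 3 preparations were compared with each other in 3 pairs. p-values were adjusted over all genes within each pair. Against FBG, FCP had 6 of the 10 genes higher and 3 lower, where 32.6% and 34.2% of all genes were called and 66.8% in either direction. aC had 7 higher and 2 lower, against 33.8% and 34.5% of all genes, and 68.3% in either direction. Beside NFE2L2, the genes higher in both FCP and aC than in FBG were GCLM (0.27 ± 0.052 and 0.30 ± 0.052), GCLC (0.25 ± 0.059 and 0.37 ± 0.059), SRXN1 (0.22 ± 0.051 and 0.41 ± 0.051), SLC7A11 (0.31 ± 0.047 and 0.49 ± 0.046) and FTL (0.04 ± 0.016 and 0.22 ± 0.016). The FTL difference between FCP and FBG was lost without FBG replicate 1 (0.04, adjusted p = 0.153), FBG replicate 2 (0.05, adjusted p = 0.0882) or FCP replicate 1 (0.04, adjusted p = 0.0917). NQO1 was lower in both (−0.32 ± 0.024 and −0.29 ± 0.024). TXNRD1 was higher in aC than in FBG (0.09 ± 0.019, adjusted p = 0.000297), while in FCP it was not called with TMM scaling (−0.03 ± 0.019, adjusted p = 0.119, interval −0.07 to 0.00) and turned to 0.07 with library size alone. FTH1 in aC was not called against FBG (−0.03 ± 0.049, adjusted p = 0.636, interval −0.12 to 0.07) with TMM scaling, was 0.09 with library size alone, and was called higher, by 0.20, with GC and length trends removed. These 2 comparisons share the FBG libraries and cross the division in epithelial and mesenchymal markers.

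The comparison of aC with FCP stayed within that division and called few genes: 4.57% of all tested genes were higher in aC and 4.45% lower, 9.01% in all. Of the 10 genes, 5 were higher and none was lower (0 by edgeR, 0 by DESeq2 and 0 at an unadjusted p under 0.05). Among the 9323 genes with a mean level at least that of HMOX1, 7.17% were called higher and 7.57% lower. All 10 values lay above 0, with a median of 0.15 against 0.00 over all tested genes, and these genes were not chosen at random, so no test is attached to that count. FTH1 differed most, at 49.0 and 50.1 CPM in FCP and 68.5 and 72.4 in aC, a fold of 1.42 (log2 0.51 ± 0.049, adjusted p = 3.45e-07). FTL was higher by 0.18 ± 0.015 (adjusted p = 3.02e-08) and TXNRD1 by 0.12 ± 0.018 (adjusted p = 6.59e-05). These 3 calls held under every alternative run. Every alternative started from the deposited counts, in which FTH1 is counted in part. None could therefore show whether the counted part of FTH1 differed between FCP and aC. LOC399900, which shares exons with FTH1, had 12 and 13 counts in FCP and 41 and 30 in aC, and its part in the FTH1 difference was not tested.

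SRXN1 and SLC7A11 were higher in aC than in FCP by less stable margins. SRXN1 differed by 0.19 ± 0.049 (adjusted p = 0.0185), and the call was lost without FCP replicate 1 (0.22, adjusted p = 0.0638), FCP replicate 2 (0.16, adjusted p = 0.207), aC replicate 1 (0.20, adjusted p = 0.0934) or aC replicate 2 (0.18, adjusted p = 0.146). SLC7A11 differed by 0.18 ± 0.045 (adjusted p = 0.0123), and the call was lost without FCP replicate 1 (0.14, adjusted p = 0.236), aC replicate 1 (0.18, adjusted p = 0.0875) or aC replicate 2 (0.17, adjusted p = 0.115), and by DESeq2 (0.18, adjusted p = 0.0968). The other 5 genes were not called, and their 95% intervals, from the error and not adjusted over genes, bound the difference between the 2 preparations. These ran from 0.03 to 0.17 for NFE2L2, 0.01 to 0.46 for HMOX1, −0.02 to 0.07 for NQO1, −0.07 to 0.12 for GCLM and 0.00 to 0.23 for GCLC. For NFE2L2 the call appeared when only these 2 groups were fitted (0.09, adjusted p = 0.0391) and when GC and length trends were removed (0.12, adjusted p = 0.0103). Of the pathway genes outside the 10, 75 of 81 were tested and 10 were higher and 1 lower in aC than in FCP, among them MAFF (0.29 ± 0.054), ABCC3 (0.44 ± 0.033), ALDH3A1 (0.98 ± 0.282), SLC11A2 (0.28 ± 0.059), ACO1 (0.14 ± 0.029) and, lower, IDH1 (−0.17 ± 0.033).

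Compared per exonic base, the order of the 10 genes was similar in the 4 groups. FTL led at 3280 ± 63.6 TPM in Mock (SD, n = 2), 2403 ± 8.16 in FBG, 2896 ± 10.2 in FCP and 3325 ± 17.2 in aC, and SLC7A11 came last at 4.41 ± 0.247, 9.87 ± 0.241, 14.3 ± 0.529 and 16.4 ± 0.0716. On this scale the FTL values of Mock (3325 and 3235) and aC (3337 and 3313) overlapped, unlike in CPM. NQO1 came before TXNRD1 in Mock (316 ± 4.85 and 247 ± 5.97 TPM), the pair overlapped in FBG (264 ± 5.7 and 263 ± 0.729), and TXNRD1 came first in FCP (300 ± 4.16 against 248 ± 2.86) and aC (332 ± 2.32 against 256 ± 5.02). FTH1 followed at 162 ± 13, 169 ± 4.91, 136 ± 2.38 and 196 ± 8.06 TPM, from partial counts. NFE2L2 lay below SRXN1 in Mock and FBG and above it in FCP and aC. HMOX1, at 13.8 ± 0.164 TPM in Mock, overlapped GCLM in FBG, the only other pair of neighbours whose libraries overlapped. The last place of SLC7A11 rests on its 16031 exonic bases in the counting annotation. Its 1 protein-coding transcript in GENCODE v29 held 9596 distinct 50-base stretches, so that place may depend on the length used.

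The tested genes outside the 10 that were most like each of them were found by the same distance over the 8 libraries. Genes near NFE2L2 included CEMIP2 (0.0984) and SELENOI (0.113), and NQO1 was nearest to RTN4 (0.0622), PSMD3 (0.0715) and PGAM1 (0.072). Genes near SLC7A11 included ATP2B1 (0.115) and ARID4B (0.118). GCLM was nearest to MARCHF7, SPECC1 and HAPSTR1 (0.0996 to 0.116) and GCLC to PAN2, ZNF217 and ZNF367 (0.104 to 0.133). TXNRD1 was nearest to CMTR1, MAP3K10 and FLCN (0.0853 to 0.0901) and SRXN1 to RNF149, GLIS3 and GATD1 (0.13 to 0.14). HMOX1 was nearest to TEC, ERO1B and SSB (0.196 to 0.206) and FTL to PPP2R1A, NLRC5 and ZNF574 (0.131 to 0.155). FTH1 had the most distant neighbours, HPDL, RAB40C and ACOT2 (0.231 to 0.289).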

How the data were processed

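Counts of read pairs were measured by RNA sequencing in 8 libraries, 4 groups of 2. The deposited values are raw counts per gene over exons, made by the authors with featureCounts 1.6.0 in paired mode without strand, multi-mapping or multi-overlap options, per the file headers. The submitters' processing notes name featureCounts 1.6.2, Trimmomatic 0.39, HISAT2 2.2.1, SAMtools 1.9 and GRCh38.p14. Coordinates are those of the files. Members and lists were chosen with earlier results of these data known. All 10 genes were named, plus KEAP1, BACH1, MAFF and MAFG. From each list, named genes were drawn mostly from the up to 2 with the smallest p in each direction. Some of those are not reported here.

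The test was the robust quasi-likelihood F test of edgeR 4.0.16 in R 4.3.3, with TMM scaling and filterByExpr, all 8 libraries in 1 fit with 4 residual degrees of freedom, adjusted by Benjamini-Hochberg over 16307 genes within each of the 6 comparisons and called under 0.05. CPM used TMM-scaled library sizes and log2 CPM a prior count of 2. Printed errors are the larger of the fitted standard error and the counting error, and intervals and floors of 3 counts cover no other error. Alternatives were library size alone, DESeq2 1.42.0, no filter, only the groups compared, leaving out each library, a replicate block, removal of GC content and length trends (mgcv 1.9.3, GENCODE v29, 83.2% of tested genes) and, for ferritins, pseudogene counts added. Same-numbered libraries did not deviate together (correlations −0.14 to −0.01). Some of the genes most like a member are not reported here.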

Additional observations from a re-analysis of the deposited data

How the results depend on the processing

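Of 612 alternative fold changes of the 10 genes, 560 kept their side of the threshold, 5 of them with a changed sign and no call in either fit, 35 lost and 10 gained the call, and 7 reversed. With library size alone TXNRD1 reversed against Mock to 0.03 in FBG and 0.11 in FCP, and to 0.07 in FCP against FBG, and FTH1 reversed to 0.09 in aC against Mock. With GC content and length trends removed FTH1 reversed to 0.30 and FTL to 0.09 in aC against Mock, and FTH1 to 0.20 in aC against FBG. The cause was not tested. The count of genes higher in FBG than in Mock went from 5 to 3 with DESeq2 and 2 without the trends, and that lower from 4 to 2 with library size alone. In aC against Mock it was 8 higher and 1 lower without the trends, from 5 and 3. Over all 13569 genes of that fit, 4298 were called higher and 6215 lower. The count lower in aC than in FBG went from 2 to 1 with library size alone, with DESeq2, without a filter and without the trends, and was 1 to 2 when a library was left out. The count higher in aC than in FCP, 5, was 3 to 4 when a library was left out. With the replicate block the counts stayed at 5 and 4 in FBG against Mock and 5 and 0 in aC against FCP, and no call of the 10 genes changed. The labels do not say that the numbers pair the libraries. Over all genes, DESeq2 called 445 higher and 385 lower in aC against FCP, from 745 and 725, and 2601 higher in FBG against Mock, from 3941. At this depth HMOX1, at about 10 CPM, was the least precise of the 10.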
